A study of Mus musculus with 2 samples.

Results

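The 9 genes described here encode 7 integrin chains (*Itgam*, *Itgax*, *Itgal*, *Itga4*, *Itgb1*, *Itgb2* and *Itgb7*), the selectin ligand PSGL-1 (*Selplg*) and the endothelial adhesion receptor VCAM-1 (*Vcam1*). They form a list given by name, drawn up with earlier results of these data known, and make up 9 of the 32285 genes in the count tables. Counts are from single-cell RNA sequencing (scRNA-seq) of live CD45+ cells, sorted as 7-AAD-negative from the ventricles of infarcted neonatal mouse hearts. In all hearts the left anterior descending artery was ligated on postnatal day 2 to give a myocardial infarction (MI), and tissue was collected 7 days after surgery, when the pups were 9 days old (P2MI7dpi). WT cells pooled from 5 hearts gave 1 library, and cells pooled from 5 *Lyve1* KO hearts gave the other. The knockout is global, so that it is carried by every cell type of the KO hearts, lymphatic vessels included. The strain of the WT mice is not given in the sources used here. The 2 libraries shared 3 barcodes among kept cells. The comparison asks what the immune cells of the injured neonatal heart express without LYVE-1, a hyaluronan receptor of lymphatic endothelium and of resident macrophages. Each genotype has 1 library, so the genotypes cannot be tested against each other, and differences below are differences between these 2 libraries.

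Leukocytes leave the blood in steps. PSGL-1 binds selectins on the vessel wall and lets cells roll, integrins then arrest them on ligands such as ICAM-1 and VCAM-1, and integrins also anchor cells within the tissue. An integrin reaches the surface as a pair of an α and a β chain. The β2 chain (*Itgb2*, CD18) pairs with αL (*Itgal*) to form LFA-1, with αM (*Itgam*, CD11b) to form Mac-1 and with αX (*Itgax*, CD11c) to form CD11c/CD18. The α4 chain (*Itga4*) pairs with β1 (*Itgb1*) to form VLA-4, the receptor of VCAM-1, or with β7 (*Itgb7*) to form the receptor of MAdCAM-1 that guides lymphocytes to the gut.

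The cells fell into 9 classes with at least 30 cells in both libraries. They are named as "like" a cell type because their names rest on marker lists that hold none of the 9 genes, and none of the 9 was used in clustering. Of 4180 kept WT cells and 3367 kept KO cells, the largest class was CCR2- macrophage-like (1224 WT and 541 KO cells). The other classes ranged from 71 cells (KO dendritic cell-like) to 496 (KO B cell-like). Levels are CPM, the unique molecular identifiers (UMIs) of a gene summed over a class and library, as a share of all UMIs of the same cells on the usual CPM scale. Ranges in parentheses are exact 95% Poisson intervals, which cover counting error only, as do all intervals below. *Ptprc*, which encodes the sorted marker CD45, was between 385 and 2171 CPM in the 9 classes. *Ccr2* had 43.2 CPM (WT) and 63.8 CPM (KO) in the CCR2- macrophage-like class and 601 and 752 CPM in the CCR2+ one. *Lyve1* was at 530.4 CPM (522 to 539) in WT CCR2- macrophage-like cells and at 21.1 CPM (18.8 to 23.5) in the KO library, as the labels say. Transcript of *Lyve1* was not absent from the KO library. In the other 8 classes it had 2.86 to 27.9 CPM there, against 0 to 15.1 CPM in WT, and was higher in KO in each of them. A further 833 WT and 551 KO cells of low depth and 37 WT and 42 KO cells of other kinds stayed unnamed. Mast cell or basophil-like cells (30 WT and 15 KO) are given by their levels only.

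In the GRCm38 genome, *Itgal* (chr7:127296260-127335138), *Itgam* (chr7:128062640-128118491) and *Itgax* (chr7:128129547-128150657) lie on the plus strand of the chromosome that also holds *Lyve1* (chr7:110850607-110863239, minus strand), 16.4 to 17.3 Mb away from it. *Itgam* and *Itgax* are neighbours, with 11.056 kb between them. The others are on separate chromosomes: *Itga4* (chr2:79255426-79333123, plus strand), *Itgb1* (chr8:128685654-128733200, plus strand), *Itgb2* (chr10:77530252-77565708, plus strand), *Itgb7* (chr15:102215995-102231944, minus strand), *Selplg* (chr5:113818536-113832644, minus strand) and *Vcam1* (chr3:116109949-116129688, minus strand). Promoter windows were at hand for 5 of the 9 genes, from RefSeq on GRCm38.p6. The 250 bases before the start are shown for 3 of them, because *Itgam* and *Itgax* stand side by side on the chromosome and *Itgb1* was the integrin chain that differed least between classes. Capitals mark GAGGAA on either strand (TTCCTC is its reverse complement), a longer form of GGAA, the core bound by ETS factors such as PU.1. GGAA by itself is not marked, and the *Itgax* window holds it too.
Itgam: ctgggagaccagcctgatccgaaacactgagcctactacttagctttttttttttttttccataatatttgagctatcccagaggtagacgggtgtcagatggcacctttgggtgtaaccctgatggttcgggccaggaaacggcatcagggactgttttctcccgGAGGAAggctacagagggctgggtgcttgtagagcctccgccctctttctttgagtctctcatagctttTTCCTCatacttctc
Itgax: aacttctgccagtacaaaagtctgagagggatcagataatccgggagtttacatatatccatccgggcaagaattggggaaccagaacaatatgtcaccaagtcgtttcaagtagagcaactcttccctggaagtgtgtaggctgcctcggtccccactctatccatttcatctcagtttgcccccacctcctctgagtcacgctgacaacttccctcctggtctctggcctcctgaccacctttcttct
Itgb1: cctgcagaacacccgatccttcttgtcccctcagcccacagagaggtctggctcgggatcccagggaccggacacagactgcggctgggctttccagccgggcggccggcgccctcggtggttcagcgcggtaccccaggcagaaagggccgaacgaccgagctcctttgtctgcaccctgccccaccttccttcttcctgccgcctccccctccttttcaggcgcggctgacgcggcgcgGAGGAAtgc
The *Itgam* window (chr7:128062390-128062639) held GAGGAA at 2 places, starting 84 and 15 bases before the gene start. The *Itgax* window (chr7:128129300-128129549, set by the RefSeq start) held none, and the *Itgb1* window (chr8:128685404-128685653) held 1, starting 9 bases before the gene start. GAGGAA was present on either strand in 23.3% of all 32851 windows of this length, so a match is common. *Itgb1* also had 21 CG dinucleotides and 68.0% GC, against 6 and 49.6% for *Itgam*, 5 and 50.0% for *Itgax* and a median of 6 CG dinucleotides over all windows. These are descriptions of sequence and no evidence of binding.

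The chains of the β2 integrins were highest in myeloid classes, and each α chain had its own order of classes. *Itgam*, the αM chain of Mac-1, which binds complement fragment iC3b and ICAM-1, was highest in neutrophil-like cells, at 662 CPM (633 to 693) in WT and 527 CPM (501 to 553) in KO. Non-classical monocyte-like cells followed with 520.3 CPM (495 to 547) and 512 CPM (491 to 534), so that in the KO library the intervals of these classes overlapped. Classical monocyte-like cells were at 455 and 417 CPM, CCR2+ macrophage-like cells at 409 and 372 CPM and CCR2- macrophage-like cells at 253 and 377 CPM. The order of the macrophage classes was therefore reversed in the KO library, where their intervals (367 to 387 CPM and 356 to 388 CPM) overlapped. Dendritic cell-like cells had 128 and 77.6 CPM. B and T cell-like cells had at most 23.2 CPM, and T cell-like cells of the WT library had 3.81 CPM (2.32 to 5.88), 174-fold below WT neutrophil-like cells.

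*Itgal*, the αL chain of LFA-1, was highest in non-classical monocyte-like cells, at 904 CPM (870 to 939) in WT and 968 CPM (938 to 997) in KO. These are the monocytes that patrol the inner vessel wall. Neutrophil-like cells (393 and 372 CPM) and classical monocyte-like cells (349.8 and 379 CPM) came next and could not be told apart in the KO library. CCR2- macrophage-like cells were lowest, at 35.3 CPM (33.1 to 37.5) and 28.7 CPM (26.0 to 31.5), 25.6-fold and 33.8-fold below the non-classical monocyte-like cells. NK cell or innate lymphoid cell (ILC)-like cells had the most among lymphoid classes, with 225 and 215 CPM, against 99.5 and 112 CPM in T cell-like and 51.3 and 47.5 CPM in B cell-like cells. The NK cell or ILC-like class is not free of T cells. Its cluster led by *Cd163l1*, *Trdv4* and *Tcrg-V6*, the last 2 being segments of the γδ T cell receptor, held 48 WT and 47 KO cells. *Itgal* was at 316 and 277 CPM there, against 306 and 252 CPM in the cluster led by *Gzma* and 137 and 154 CPM in that led by *Areg*.

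*Itgax*, the αX chain, is used as a marker of dendritic cells, and it was highest in dendritic cell-like cells of the WT library with 105 CPM (93.4 to 118). In the KO library CCR2+ macrophage-like cells were highest with 169 CPM (158 to 180), then neutrophil-like cells with 129.9 CPM (117 to 143), and dendritic cell-like cells came after them with 93.9 CPM (82.9 to 106). The WT values of those classes were 66.4 CPM (59.1 to 74.3) and 50.3 CPM (42.4 to 59.2). CCR2- macrophage-like cells had 1.74 and 5.65 CPM. B cell-like cells had 1 UMI in WT and 0 in KO, which allows up to 0.336 CPM at 3 counts.

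*Itgb2*, the partner of all 3 chains, was highest in non-classical monocyte-like cells (765 CPM, 734 to 797, in WT and 829 CPM, 802 to 857, in KO). Neutrophil-like cells had 707 CPM (676 to 738) and 670.2 CPM (641 to 699.9), and the WT intervals of these classes overlapped. It was lowest in B cell-like cells, with 60.3 and 76.998 CPM. CCR2- macrophage-like cells had less than the CCR2+ ones in both libraries, 151 against 321 CPM in WT and 207 against 379 CPM in KO.

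**Figure D1:**
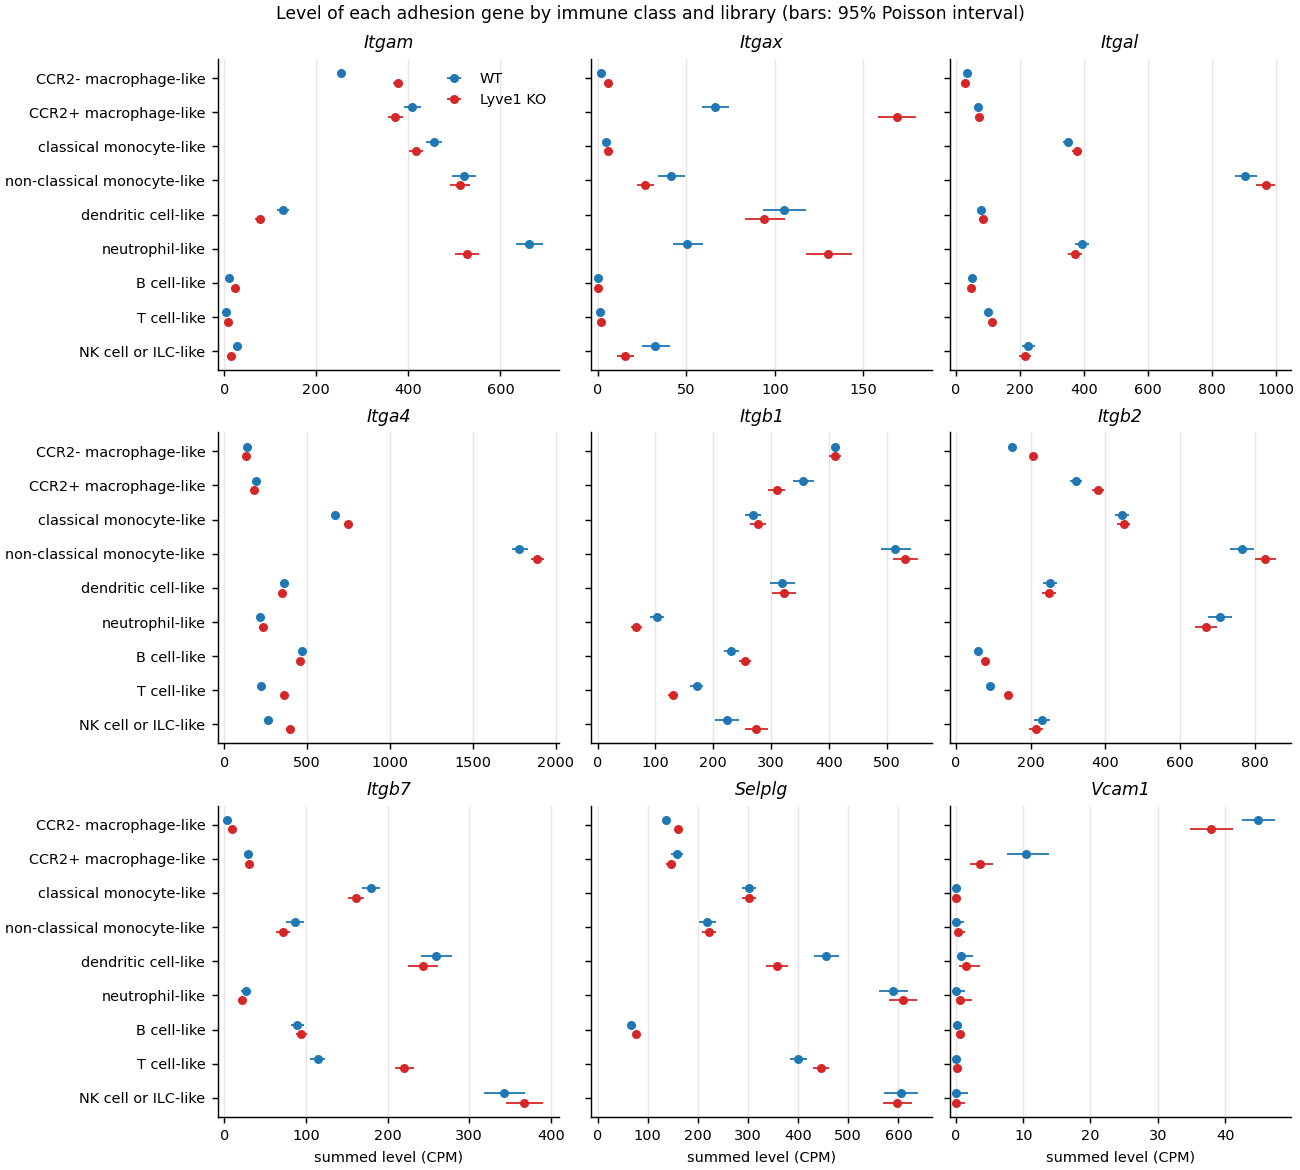
Level of each of the 9 genes (CPM, linear axis from 0, its own scale in each panel) in the 9 classes, WT in blue and *Lyve1* KO in red, with exact 95% Poisson intervals as bars. *Itgal*, *Itga4* and *Itgb2* peak in non-classical monocyte-like cells in both libraries, *Itgb7* in NK cell or ILC-like cells, and *Vcam1* is near 0 outside macrophages, while *Itgax* lies further to the right in KO than in WT for CCR2+ macrophage-like and neutrophil-like cells.

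The α4 chain and its partners had other orders. *Itga4* was highest in non-classical monocyte-like cells, at 1782 CPM (1734 to 1831) in WT and 1889.7 CPM (1849 to 1931) in KO. Classical monocyte-like cells had 668 and 746 CPM and B cell-like cells 471 and 455 CPM, and the lowest class was again the CCR2- macrophage-like cells, with 134 and 133 CPM. *Itgb1*, the β1 chain that also serves matrix-binding integrins, varied least across classes among the integrin chains. Its highest class, non-classical monocyte-like cells (515 and 532 CPM), was 5.01-fold above the lowest in WT and 8.04-fold in KO, and the lowest in both was neutrophil-like (103 and 66.1 CPM). CCR2- macrophage-like cells had 410.3 CPM (403 to 418) in WT and 410.4 CPM (400.2 to 421) in KO, a log2 ratio of 0.00 (-0.04 to 0.04).

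*Itgb7* was a lymphoid, dendritic and monocyte chain here. NK cell or ILC-like cells had 342 CPM (318 to 369) and 367 CPM (345 to 391), dendritic cell-like cells 259 and 243 CPM and classical monocyte-like cells 179.8 and 161 CPM. CCR2- macrophage-like cells had 3.42 CPM (2.78 to 4.16) in WT and 9.24 CPM (7.77 to 10.9) in KO. Mast cell or basophil-like cells had more still, 483 CPM (409.5 to 565) in 30 WT cells and 395 CPM (313.5 to 492) in 15 KO cells.

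*Selplg* was highest in NK cell or ILC-like cells (604 and 598 CPM) and neutrophil-like cells (589.8 and 608 CPM), whose intervals overlapped in both libraries. Dendritic cell-like cells had 455 and 358 CPM and T cell-like cells 399.7 and 445 CPM. B cell-like cells had least, with 67.2 and 75.8 CPM, 9.00-fold and 8.03-fold below the highest class. *Vcam1* had the narrowest range of classes. CCR2- macrophage-like cells had 44.9 CPM (42.5 to 47.4) in WT and 37.9 CPM (34.9 to 41.1) in KO, and CCR2+ macrophage-like cells 10.4 and 3.53 CPM from 47 and 20 UMIs. Classical monocyte-like cells had 0 UMIs in both libraries, which allows up to 0.541 and 0.477 CPM at 3 counts. None of the remaining 6 classes had more than 5 UMIs in a library.

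Across the 18 points of class and library, *Itgam* correlated with *Itgb2* (r = 0.83) and so did *Itgal* (r = 0.78) and, less, *Itgax* (r = 0.60). *Itga4* correlated with *Itgal* (r = 0.71) more than with its partners *Itgb7* (r = 0.44) and *Itgb1* (r = 0.34), and *Itgb7* was opposite to *Vcam1* (r = -0.72). The points come in pairs of the same class and the 9 classes share each library, so these values are descriptions of log2(CPM + 10) only. Among 13841 genes with at least 100 UMIs, the 3 closest to *Itgam* were *Lst1*, *Pla2g7* and *Mapk3* (r = 0.98 for the first), those to *Itgal* *Abca7*, *Fmnl1* and *Mbp* (0.96), and those to *Itgb2* *Myo1f*, *Slc16a3* and *Gsap* (0.96). For *Itga4* they were *Cerkl*, *Eif4g3* and *Arhgap27* (0.97 for the first), for *Itgb1* *Piezo1*, *Ccdc50* and *Stk3* (0.95) and for *Itgb7* *Gm9844*, *Borcs8* and *Traf7* (0.93). *Vcam1* was nearest to *Slco2b1*, *Gdf3* and *Gm44850* (r = 0.995 for the first), *Selplg* to *Vps26b*, *Gabarapl2* and *Slco3a1* (0.89) and *Itgax* to *1700019L13Rik* (r = 0.86), *AA467197* (r = 0.85) and *Adam8* (r = 0.84).

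The KO library was then set against the WT library class by class, with the log2 ratio of CPM + 10 and a size of at least 0.5, called past the fold below, for genes with at least 100 UMIs. Of 68 pairs of gene and class with enough counts, 12 were past the fold (17.6%), 9 higher and 3 lower in KO. Over all genes 3849 of 68877 pairs (5.59%) were past it, 1538 higher and 2311 lower, and over 63 other adhesion genes 19 of 297 (6.40%), 11 higher and 8 lower (15 of 21 higher when ratios were centred on the class median, and 15 of 22 without mitochondrial and ribosomal protein genes). Adding 10 CPM shrinks the ratios of genes with low levels, and the members were not set against genes of like level. With 1 CPM added, 20.6% of member pairs and 10.1% of the pairs of all genes were past the fold. *Itgal*, *Selplg* and *Vcam1* were not past the fold in any class with enough counts. The pairs share 2 libraries and are not independent of each other. Genotype and library cannot be told apart here, and whether DNA of another strain around *Lyve1* differs at the 3 α chain genes of its chromosome was not tested.

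In CCR2+ macrophage-like cells 1 of 8 members was past the fold, where 3.73% of all tested genes were. *Itgax* had 300 UMIs in 181 WT cells and 958 UMIs in 186 KO cells, 66.4 against 169 CPM, a log2 ratio of 1.23 (1.06 to 1.40). The class is a single cluster led by *Spp1* and *Gpnmb*, genes known from macrophages of healing tissue. Summed genes of other cell types were lower in KO in this class, with 83.6 against 18.3 CPM for 10 cardiomyocyte genes and 18.6 against 5.64 CPM for 6 erythroid genes, and their part in the result was not tested. The other β2 members differed less, with log2 ratios of -0.13 for *Itgam* and 0.23 for *Itgb2*. *Itgax* was higher in KO within the cells taken as female (67.4 against 139 CPM) and within those taken as male (66.7 against 184 CPM), where sex was read from *Xist* and 4 Y-linked genes, so that each set came from other hearts of the pool.

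In neutrophil-like cells 2 of 8 members were past the fold (8.27% of all tested genes). *Itgax* had 144 UMIs in 351 WT cells and 395 UMIs in 336 KO cells, a log2 ratio of 1.21 (0.97 to 1.46). The summed level of 6 erythroid genes in this class was 107 CPM for WT against 16.4 CPM for KO, and that of 10 genes of cycling cells 839.6 against 1453 CPM. Their part in the result was not tested. The main neutrophil cluster, led by *Asprv1* and *Stfa1*, had 43.4 CPM (34.4 to 54.0) in WT and 162 CPM (145 to 181) in KO. The cluster led by *Acod1* and *Il1rn* had 125 CPM (96.1 to 161) and 199.6 CPM (151 to 259), with overlapping intervals, and the cluster led by the granule genes *Ngp*, *Camp* and *Ltf*, as in immature neutrophils, had 2 and 1 UMIs. *Itgb1* was lower in KO, 103 CPM from 294 UMIs against 66.1 CPM from 201 UMIs (log2 ratio -0.57, -0.80 to -0.33). The *Acod1* cluster had the most *Itgb1* (275 and 203 CPM) and held 21.7% of WT but 12.5% of KO neutrophil-like cells. With the clusters weighted as in WT, the ratio of *Itgb1* was -0.36 and that of *Itgax* 1.31.

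**Figure D2:**
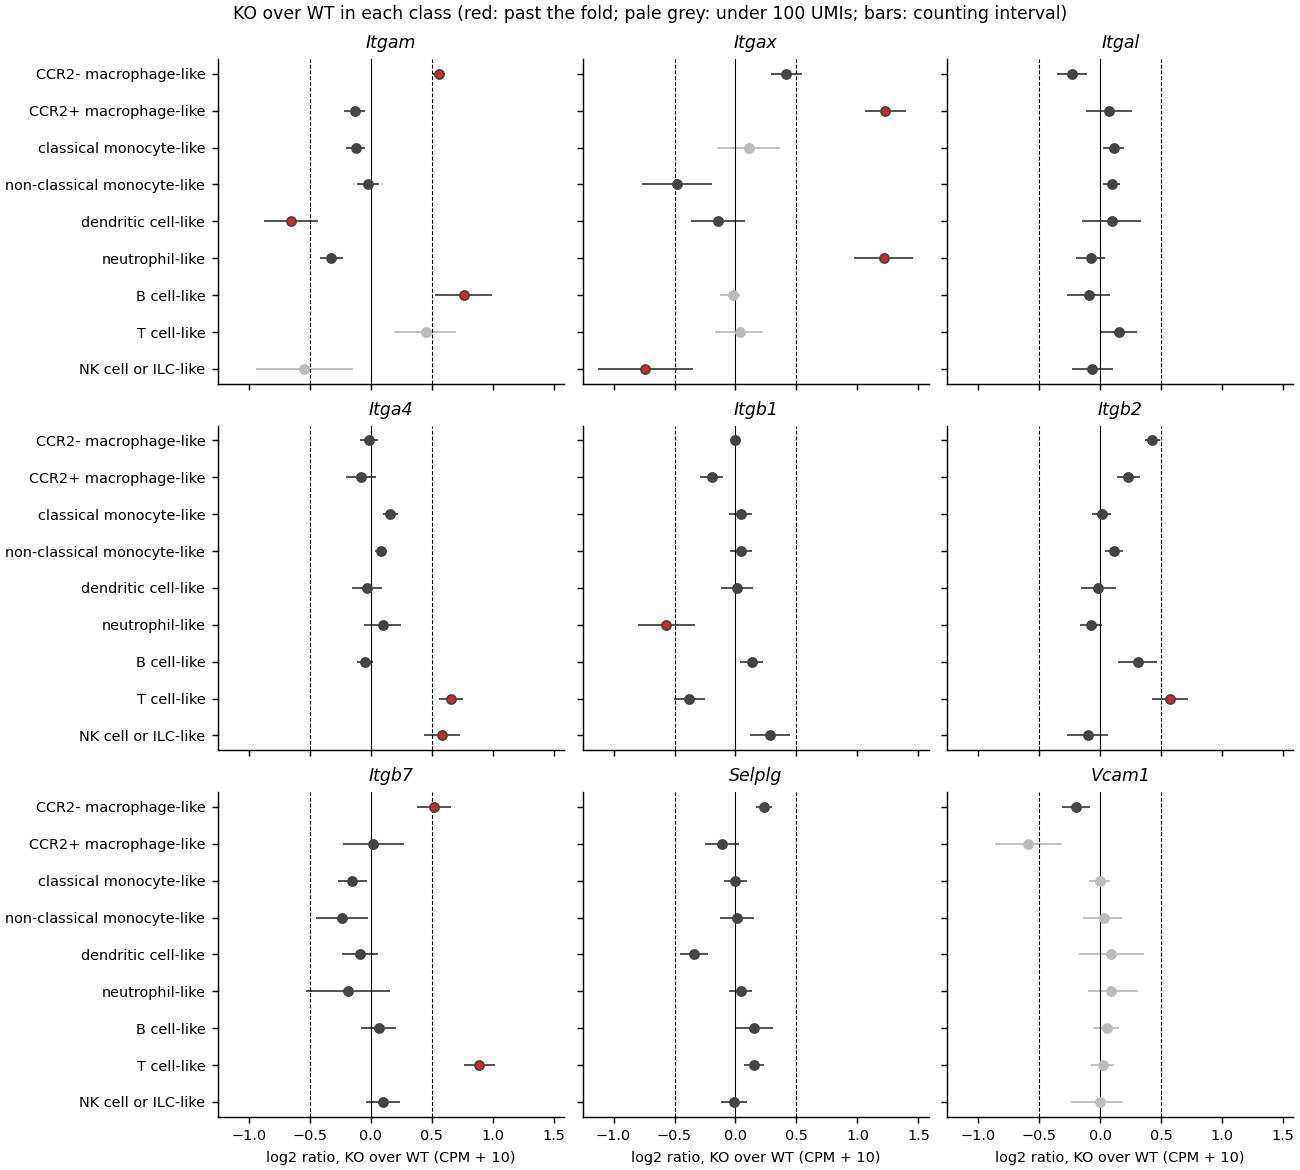
Log2 ratio (KO over WT, CPM + 10) of each gene in each class, with counting intervals as bars and dashed lines at the fold of 0.5. Red points are the 12 pairs past the fold and pale points had under 100 UMIs; *Itgax* in CCR2+ macrophage-like cells (1.23) and in neutrophil-like cells (1.21) lies furthest from 0, and no point of *Itgal* or *Selplg* is past the lines.

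In CCR2- macrophage-like cells, where 2.62% of all tested genes were past the fold, 2 of 9 members were. *Itgam* had 7409 UMIs (253 CPM) in WT and 5667 UMIs (377 CPM) in KO, a log2 ratio of 0.56 (0.51 to 0.60). *Itgb7* had 100 and 139 UMIs, with a log2 ratio of 0.52 (0.38 to 0.66), and was past the fold in 8 of 14 alternative settings. It was below the fold (0.49) without the cell that had the most UMIs in each library. It was also short of the fold in female cells, with doublets kept, with all variable genes and with a difference of mean log-normalized values. *Itgb2* was at 0.43, short of the fold. These values moved with 1 cluster, led by *Saa3*, *Prg4* and *Marco*, a scavenger receptor gene. It held 64 WT cells (5.23% of the class, 10.4% of its UMIs) and 61 KO cells (11.3% and 23.4%). Its *Itgam* level was 1013 CPM (978 to 1050) in the WT and 949 CPM (917 to 982) in the KO library, against 97.8 to 208 CPM in the other WT clusters of the class. The same cluster had the most *Itgb2* (472 and 525 CPM), *Itgb7* (20.4 and 32.4 CPM) and *Selplg* (273 and 276 CPM) of the class. With the clusters weighted as in WT, the log2 ratios were 0.10 for *Itgam*, 0.20 for *Itgb7* and 0.03 for *Itgb2*.

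Within that makeup, single clusters still differed. *Itgam* had 145 CPM (135 to 156) in WT and 235 CPM (220.1 to 251) in KO in the cluster led by *Ccl8*, *Lyve1* and *Folr2*, a log2 ratio of 0.66 (0.52 to 0.79), but at 208 and 211 CPM (ratio 0.02) in the largest cluster, led by *Olfml3* and *Gpr34*. In the cells taken as female the ratio of *Itgam* over the whole class was 0.12 and in those taken as male 0.77. *Vcam1* had its highest level in a cluster led by *Cd207*, *Vsig4* and *Clec4f*, at 278 CPM (252 to 307) in its 71 WT cells, against 5.58 to 94.99 CPM in the other WT clusters of the class. Only 405 of the 1314 WT UMIs of *Vcam1* in the class were in this cluster. This cluster also had 229.5 CPM (206 to 255.5) of *Itgal*, against at most 41.8 CPM in those others. It held 17 KO cells, under the 20 set for a comparison. *Vcam1* is best known from endothelium, and an unnamed cluster led by *Fabp4*, *Sparc* and *Col4a1* had 24.3 CPM of it in 25 WT cells and 85.9 CPM in 35 KO cells. These values rest on 13 UMIs in 2 WT cells and 81 UMIs in 8 KO cells, 39 of them in 1 cell.

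**Figure D3:**
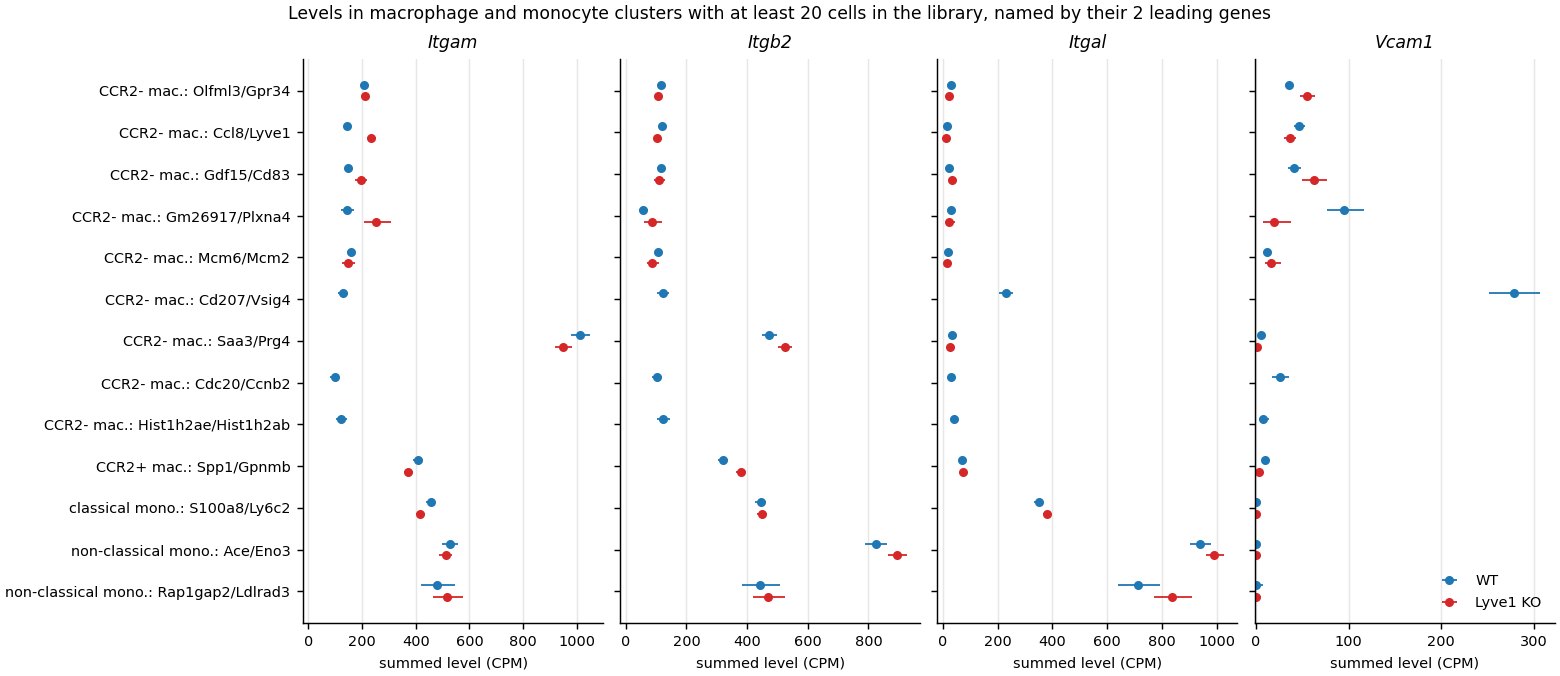
Levels of *Itgam*, *Itgb2*, *Itgal* and *Vcam1* (CPM) in the macrophage and monocyte clusters with at least 20 cells in a library, named by 2 leading genes, WT in blue and KO in red, with 95% Poisson intervals. The *Saa3*/*Prg4* cluster stands apart in *Itgam* (1013 and 949 CPM) and *Itgb2*, and the *Cd207*/*Vsig4* cluster in *Vcam1* (278 CPM) and *Itgal* among CCR2- macrophage-like clusters.

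In T cell-like cells 3 of 6 members were past the fold, against 15.0% of all tested genes, the highest background of the 9 classes. *Itgb7* had 114 CPM (105 to 124) in WT and 220.4 CPM (209 to 232) in KO, a log2 ratio of 0.89 (0.76 to 1.02). *Itga4* had 224 and 359 CPM (ratio 0.66, 0.56 to 0.75), and *Itgb2* 90.4 and 139 CPM (ratio 0.57, 0.43 to 0.72). These values moved with a cluster led by *Arpp21* and *Dntt*, with *Rag1* among its 10 leading genes. *Dntt* and *Rag1* are genes of T cell precursors that rearrange their receptors. It held 39.5% of WT and 15.9% of KO T cell-like cells and 56.6% and 24.7% of their UMIs. In this cluster *Itgb7* had 1.01 CPM (0.208 to 2.95) in WT and 20.7 CPM (14.4 to 29.0) in KO, and *Itga4* 104 and 107 CPM. The *Itgb7* values rest on few cells, with 3 UMIs in 3 WT cells and 34 UMIs in 5 of 68 KO cells, 14 of them in 1 cell. In the cluster led by *Dapl1* and *Cd40lg* it was 251 and 264 CPM for *Itgb7* and 378 and 370.2 CPM for *Itga4*, while in the cluster with *Cd8b1* *Itga4* was 331 CPM (297 to 369) in WT and 491 CPM (461 to 523) in KO. The cluster led by *Ctla4*, *Ikzf2* and *Foxp3*, as in regulatory T cells, had the most *Itgb7* (477 and 557 CPM) and *Itgb1* (519 and 392 CPM) of the class. With clusters weighted as in WT the log2 ratios were 0.29 for *Itgb7*, 0.19 for *Itga4* and 0.24 for *Itgb2*. Of the WT cells taken as female, 106 of 162 T cell-like cells (65.4%) were in the *Rag1* cluster, against 17.5% of WT male, 2.78% of KO female and 21.3% of KO male cells. The ratio of *Itgb7* was 2.34 in female cells and -0.11 in male cells, that of *Itga4* 1.33 and 0.17 and that of *Itgb2* 1.09 and 0.07. The cells also differed in depth, with a median of 8279 UMIs in WT and 12581 in KO.

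In NK cell or ILC-like cells 2 of 7 members were past the fold (6.52% of all tested genes). *Itga4* had 263 and 398 CPM, a log2 ratio of 0.58 (0.44 to 0.73), and was higher in KO in all 3 clusters of the class, with ratios of 0.45, 0.60 and 0.46. It was short of the fold in male cells (0.43), with doublets kept (0.42) and with clusters weighted as in WT (0.47), and also with a difference of mean log-normalized values. *Itgax* had 66 UMIs (32.2 CPM) in WT and 41 UMIs (15.3 CPM) in KO, a ratio of -0.74 (-1.13 to -0.35). All of these UMIs were in the cluster led by *Gzma* and *Ccl5*, with *Klrb1c*, which encodes NK1.1. There *Itgax* was 128 CPM (98.8 to 163) in WT and 49.6 CPM (35.6 to 67.3) in KO. The macrophage genes *C1qa*, *C1qb* and *C1qc* were also lower in KO over the whole class, lying between 92.3 and 144 CPM in the WT library (2.23 to 3.06% of their level in CCR2- macrophage-like cells) and between 0.745 and 1.49 CPM in the KO library (0.0195 to 0.0354%). In B cell-like, T cell-like and neutrophil-like cells of the WT library the same genes were at 1.90 to 4.54 CPM. CCR2- macrophage-like cells themselves had 1.74 CPM of *Itgax* in WT, and the part of macrophage RNA, free or not, in the result was not tested. *Itgb7* was high in all 3 clusters, with 322 and 441 CPM in the cluster led by *Areg*, *Il5* and *Il13* and 269 and 220.4 CPM in the *Gzma* cluster. It had 455 and 416 CPM in that led by *Cd163l1* and *Trdv4*, the cluster with γδ T cell receptor genes.

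In dendritic cell-like cells *Itgam* alone of 8 members was past the fold (7.18% of all tested genes), at 360 UMIs (128 CPM) in WT and 218 UMIs (77.6 CPM) in KO, a log2 ratio of -0.65 (-0.88 to -0.43). The cluster led by *Cd209a* had 235 CPM (211 to 261) and 132 CPM (115 to 151). *Cd209a* is known from type 2 conventional and monocyte-derived dendritic cells. *Siglech* and *Ccr9*, markers of plasmacytoid dendritic cells, were also among the leading genes of the cluster. It may therefore mix types, and the part of such a mix in its values was not tested. The cluster led by *Clec9a*, with *Xcr1*, markers of type 1, had 6.13 and 1.92 CPM of *Itgam* but 322 and 316 CPM of *Itgb7*. In cells taken as female the ratio of *Itgam* was 0.03 (48 WT and 23 KO cells) and in those taken as male -1.01 (51 and 44 cells), and with finer clustering the pair was not past the fold. *Selplg* was also lower in the *Cd209a* cluster, 482 against 311 CPM (ratio -0.62), and not past the fold over the class (-0.34). The cluster led by *Fscn1* held 23 WT and 4 KO cells, and that led by *Ccl22* and *Ccr7* 16 WT and 0 KO cells. *Itgam* was still past the fold with clusters weighted as in WT, which leaves out the cluster without KO cells. Median depth was 23444.5 UMIs in WT and 37568 in KO, and its part in the result was not tested.

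In B cell-like cells 1 of 7 members was past the fold (3.08% of all tested genes). *Itgam* had 58 UMIs (9.50 CPM, 7.21 to 12.3) in WT and 207 UMIs (23.2 CPM, 20.1 to 26.5) in KO, a log2 ratio of 0.77 (0.53 to 0.99), and was higher in KO in cells taken as female (7.47 and 30.1 CPM) and male (8.21 and 20.05 CPM), from 88 and 160 female and 271 and 255 male cells. It was higher in KO in the cluster with *Zbtb32* and *Fcrl5* (10.4 and 26.9 CPM). With overlapping intervals, it was also higher in the cluster led by *Fcer2a* (8.65 and 15.7 CPM). The same held for the cluster led by *Gm26917* and *Ebf1* (6.18 and 31.9 CPM, from 2 and 9 UMIs). The macrophage genes *C1qa*, *C1qb* and *C1qc* were also higher in KO B cell-like cells, at 2.78 to 3.60 CPM in WT and 6.49 to 6.83 CPM in KO. As a share of the level in CCR2- macrophage-like cells these were 0.065 to 0.087% in WT and 0.157 to 0.182% in KO, against 3.75% and 6.15% for *Itgam*. These genes do not follow RNA of neutrophil-like or monocyte-like cells, where *Itgam* was highest, and the part of free RNA in the result was not tested. *Itgb1* set the B cell-like clusters apart, with 340.2 and 368 CPM in the *Zbtb32* cluster against 80.9 and 54.1 CPM in the cluster led by *Fcer2a*.

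No member was past the fold in the monocyte classes, 0 of 7 in classical (2.23% of all tested genes) and 0 of 8 in non-classical monocyte-like cells (3.61%). *Itga4* had log2 ratios of 0.16 (0.10 to 0.22) and 0.08 (0.03 to 0.13) there. *Itgax* in non-classical monocyte-like cells was at 41.2 and 26.7 CPM with a ratio of -0.48 (-0.77 to -0.19), just short of the fold.

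**Figure D4:**
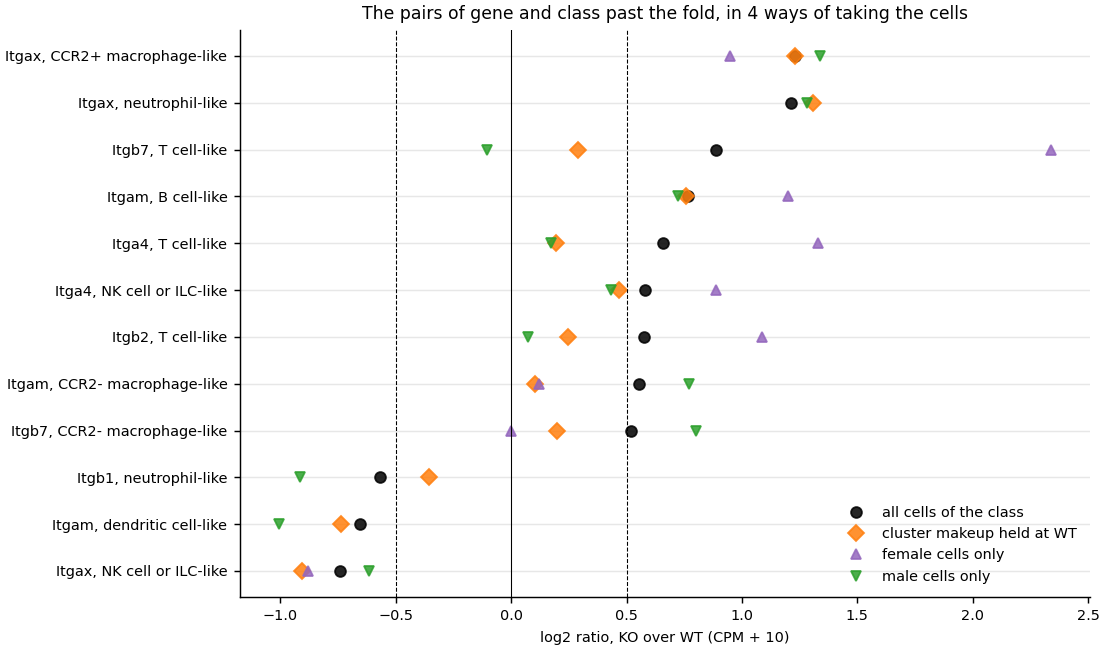
Log2 ratio (KO over WT, CPM + 10) of the 12 pairs past the fold, for all cells of the class (black), with the clusters of the class weighted as in WT (orange), in female cells (purple) and in male cells (green), where there were at least 30 cells in each library. The 3 pairs of *Itgax* and *Itgam* in B cell-like and dendritic cell-like cells are past the dashed lines for every point drawn, while the 3 genes of T cell-like cells are below 0.5 with the WT makeup and in male cells. Neutrophil-like and dendritic cell-like cells have no female point, with under 30 such cells in a library.

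Whether transcripts of both chains of an integrin were found in the same cell was counted after thinning each cell to 5800 UMIs. Shallower cells were left out, and intervals are exact Clopper-Pearson 95% ones. Such shares depend on depth and do not measure the protein pair at the surface. Transcripts of Mac-1 (*Itgam* with *Itgb2*) were found in 244 of 272 WT neutrophil-like cells (89.7%, 85.5 to 93.0) and 230 of 269 KO ones (85.5%, 80.7 to 89.5), but in 27.8% and 29.6% of CCR2- macrophage-like cells. Those of LFA-1 (*Itgal* with *Itgb2*) were found in 90.6% and 93.5% of non-classical monocyte-like cells, and those of VLA-4 (*Itga4* with *Itgb1*) in 87.4% and 91.5%. In neutrophil-like cells VLA-4 transcripts were together in 16.9% and 12.6%. *Itga4* with *Itgb7* was found in 52.6% and 50.4% of classical monocyte-like cells and in 29.95% (23.8 to 36.7) of WT and 48.2% (42.8 to 53.5) of KO T cell-like cells, where the makeup described above differed too. In CCR2- macrophage-like cells it was found in 9 of 1129 WT and 9 of 486 KO cells (0.797% and 1.85%).

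*Itgax* with *Itgb2* differed most. Both were found in 56 of 272 WT neutrophil-like cells (20.6%, 15.9 to 25.9) and 130 of 269 KO ones (48.3%, 42.2 to 54.5). In CCR2+ macrophage-like cells the counts were 32 of 165 (19.4%, 13.7 to 26.3) and 59 of 176 (33.5%, 26.6 to 41.0). In neither class did the intervals of the libraries overlap, by a narrow margin in CCR2+ macrophage-like cells. *Itgax* by itself was found in 21.3% and 50.9% of neutrophil-like cells after thinning and in 25.4% and 55.1% before. Such a share also rises with the level per cell, so it cannot tell more expressing cells from a higher level in each. In B cell-like cells, which lack CD11c as a rule, *Itgax* was found in 0 of 321 WT and 0 of 432 KO thinned cells, which allows shares of up to 0.935% and 0.694%. The median depth before thinning of the cells that entered was 8152.5 and 8554 UMIs for neutrophil-like and 13292 and 14568 UMIs for B cell-like cells. Among cells with *Itgam*, the share with *Itgb2* was close to the share among all cells of the class, for example 96.4% against 96.3% in WT neutrophil-like cells and 50.6% against 47.1% in WT CCR2- macrophage-like cells.

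**Figure D5:**
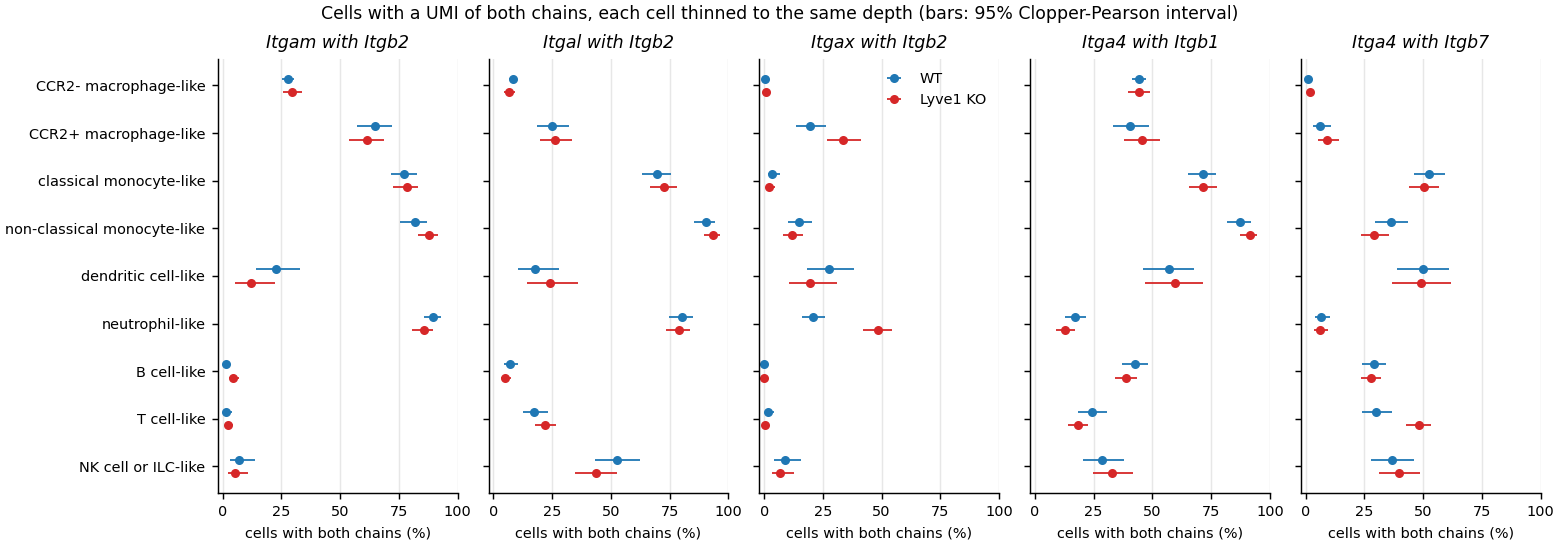
Share of cells (%) with a UMI of both chains of each integrin, after thinning to 5800 UMIs a cell, by class, WT in blue and KO in red, with Clopper-Pearson 95% intervals. Intervals of the libraries lie apart for *Itgax* with *Itgb2* in neutrophil-like cells (20.6% and 48.3%) and CCR2+ macrophage-like cells (19.4% and 33.5%) and for *Itga4* with *Itgb7* in T cell-like cells (29.95% and 48.2%).

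Among the 63 other adhesion genes, no gene was past the fold with the same sign in at least 3 classes. In T cell-like cells 7 of 33 with enough counts were past it, beside 15.0% of all tested genes of the class. In CCR2- macrophage-like cells 5 of 40 were past it (2.62% of all tested genes). Neutrophil-like cells had 3 of 30 (8.27%) and dendritic cell-like cells 2 of 30 (7.18%). Non-classical monocyte-like cells had 1 of 31 (3.61%) and NK cell or ILC-like cells 1 of 33 (6.52%). None was past it of 33 in CCR2+ macrophage-like (3.73%), 35 in classical monocyte-like (2.23%) and 32 in B cell-like cells (3.08%). The most abundant of each group over both libraries were *Itgav* (95.048 CPM) and *Itga6* (91.0 CPM) of the other α chains and *Itgb5* (75.6 CPM) and *Itgb3* (11.4 CPM) of the other β chains. They were *Fyb* (533 CPM) and *Tln1* (496 CPM) among genes of integrin activation and linkage, *Cd47* (298 CPM) and *Icam1* (165 CPM) among immunoglobulin-family partners, and *Cd44* (602 CPM) and *Cd24a* (126 CPM) among selectins and their ligands. *Icam1*, the ligand of the β2 integrins, had 181 CPM in neutrophil-like cells of the WT and 81.2 CPM in those of the KO library (log2 ratio -1.07, -1.27 to -0.87), and *Cd44*, a hyaluronan receptor, at 2164 and 1523 CPM there (-0.50, -0.56 to -0.45). The *Acod1* cluster held 17.3% of the UMIs of WT and 9.39% of those of KO neutrophil-like cells. Its part in the *Icam1* and *Cd44* values was not tested. *Cd24a* was at 339 and 152 CPM in T cell-like cells (-1.10). Over the classes it was past the fold as lower in 2 and as higher in 1. The share of the *Rag1* cluster in T cell-like cells differed as described above, and its part in the *Cd24a* value was not tested.

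A further 2 genes were singled out after their values were seen. *Selp*, which encodes P-selectin, the main partner of PSGL-1, had 7.96 CPM in the CCR2- macrophage-like cells of the WT library and 60.7 CPM in those of the KO library (log2 ratio 1.98, 1.86 to 2.09). Of these UMIs, 229 of 233 in WT and 912 of 913 in KO were in the *Saa3* and *Prg4* cluster, where the level was 75.2 CPM in 64 WT cells and 259 CPM in 61 KO cells (1.66, 1.47 to 1.85). *Icam2*, another ligand of LFA-1, was at 37.1 and 78.0 CPM over the whole CCR2- macrophage-like class (0.90). The *Saa3* and *Prg4* cluster held 10.4% of the UMIs of the class in WT and 23.4% in KO, and its part in the *Icam2* value was not tested.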

How the data were processed

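The authors sequenced both libraries with 10x GEM-X 5′ v3 chemistry and deposited UMI counts per gene and barcode from Cell Ranger 8.0.1 on mm10, as the submitters' processing notes name them. The counts are not normalized. The study's limits were applied to cells: 500 genes or more, 250 UMIs or more and no more than 30% of UMIs from mitochondrial genes. Of 5713 WT and 5285 KO barcodes (67968938 and 61555917 UMIs), 4285 and 3464 were within them. Scrublet's automatic threshold (scanpy 1.11.5) marked 0 doublets, so the 131 WT and 112 KO highest scores, an expected rate of 0.4% per 1000 barcodes, were marked instead, and 105 and 97 of the cells within limits left out. Kept cells had a median of 11156 and 12798 UMIs. The study's assignment of cells to hearts needs reads and was not used here.

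Libraries were integrated in Seurat 5.3.0 (R 4.3.3; CCA, 2000 variable genes, 30 dimensions, 20 neighbours, resolution 0.8, cell cycle scores regressed), with a second round on macrophage and monocyte clusters. The variable genes excluded the 9 genes, the other adhesion genes, *Lyve1*, *Xist*, *Tsix* and the Y-linked genes. A class name needed at least 3 markers, each found in 25% of a cluster's cells, and this scoring was set after the data were seen. The 9 genes and all lists were chosen with earlier results of these data known. All 9 are named in the text. Of the other adhesion genes, the rule named the 2 most abundant of each group and any past the fold with 1 sign in at least 3 classes, and for each member the 3 genes closest to it by r.

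Counts were summed by class and library, as cells are not replicates. The pseudocount was 10 CPM, the fold 0.5 on the log2 scale and the minimum 100 UMIs over both libraries. The log2 ratio of CPM + 10 understates the change of genes with low levels. UMIs of 1 library are not independent samples of a genotype, so there is no test, and intervals (95%) and limits for a count of 0 (3 counts) cover counting error only. The computation was tested on simulated data (Python 3.11.15, numpy 2.4.6, scipy 1.17.1, pandas 2.3.3). Of 200 genes changed by 1 on the log2 scale in CCR2- macrophage-like cells, 145 were past the fold with the right sign. In neutrophil-like cells 183 of 188 were. The simulated counts held counting error only, so they say nothing on variation between cells, hearts or libraries. Alternatives covered the pseudocount, scaling, fold, count minimum, cell limits, doublets, clustering, female and male cells, and, added after the data were seen, cluster makeup and the highest cell.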

Additional observations from a re-analysis of the deposited data

Results flagged for a closer look

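The log2 ratio of KO over WT had opposite signs in female and male cells for 2 pairs of gene and class, with counting intervals on opposite sides of 0. The difference between the sexes was not tested, since each sex of each genotype is a part of 1 pooled library. *Itgb7* in CCR2+ macrophage-like cells had a ratio of -0.5473 in female cells (41.4 CPM in 70 WT and 25.2 CPM in 61 KO cells) and of 0.4302 in male cells (22.2 CPM in 93 WT and 33.4 CPM in 107 KO cells). *Itgal* in T cell-like cells had a ratio of 0.6315 in female cells (71.8 CPM in 162 WT and 117 CPM in 108 KO cells) and of -0.2585 in male cells (136 CPM in 126 WT and 112 CPM in 239 KO cells). The share of the cluster led by *Arpp21* and *Rag1*, which had less *Itgal* than the other T cell-like clusters, moved with the second of these, at 65.4% of WT female but 2.78% of KO female cells, and at 17.5% and 21.3% of male cells. Its part in the result was not tested.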

How the results depend on the processing

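The 12 member pairs past the fold (17.6%, against 5.59% of all genes) became 2 with a difference of mean log-normalized values (2.94% against 0.745%). They became 2 with a fold of 1 (2.94% against 0.842%). With clusters weighted as in WT, an alternative added after the data were seen, they became 5 (7.35% against 3.72%). They numbered 8 to 14 under the others. With 1 CPM added they were 14 of 68 (20.6% against 10.1%), and with no minimum of UMIs 14 of 79 (17.7% against 3.55%). Under the rest, apart from female and male cells, they were 11 to 14 (15.7 to 20.6% against 5.01 to 5.99%). In female cells they were 8 of 47 (17.0%), close to the 14.3% of all genes there. In male cells they were 9 of 65 (13.8%), beside 6.87% of all genes. The 19 pairs of other adhesion genes (6.40%, against 5.59% of all genes) became 33 with 1 CPM added (11.1% against 10.1%). They became 1 with log-normalized values (0.337% against 0.745%) and 4 with a fold of 1 (1.35% against 0.842%). With no minimum of UMIs they were 30 of 508 (5.91% against 3.55%), and with clusters weighted as in WT 13 of 297 (4.38% against 3.72%). In female cells they were 35 of 199 (17.6% against 14.3%), and without cell cycle regression 30 of 298 (10.1% against 5.90%). Of 165 alternative values of the 12 pairs, 163 kept their direction and 137 were past the fold. The exceptions in direction were *Itgb7* in CCR2- macrophage-like cells in female cells (-0.0013) and *Itgb7* in T cell-like cells in male cells (-0.1065), and their cause was not tested. Classes under 30 cells in a library gave no value here. *Itgam* in female dendritic cell-like cells, described above, had the opposite sign to the whole class and is left out of the tally for this reason. *Itgax* in neutrophil-like cells was past the fold in all 13 alternatives run (0.61 to 1.35). The alternative of female cells left under 30 neutrophil-like cells in a library and was not run, so this class was not compared between the sexes. *Itgax* in CCR2+ macrophage-like cells was past the fold in 13 of 14, short of it with log-normalized values (0.4978). Of 56 member pairs not past the fold, 8 were past it in at least 1 alternative. Shares of cells with a UMI depend on the depth they are taken at: 103 of 144 values moved with no thinning or with 3000 UMIs a cell. At 3000 UMIs *Itgax* was found in 13.0% of WT and 33.3% of KO neutrophil-like cells and in 17.3% and 33.0% of CCR2+ macrophage-like cells. Shares with both chains were counted at 5800 UMIs only. The highest class of a member was the same in 16 to 18 of 18 cases under other cell limits, doublets and clustering. No paired analysis was possible because each genotype has 1 library. For the same reason no library could be left out, and differences between hearts within a pool are not known here.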
